A study of Macaca fascicularis and Mus musculus with 492 samples.

Results

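The cells described here are 105 single epiblast cells of cynomolgus monkey embryos after implantation, 50 from embryonic days 16 and 17 (E16 and E17) and 55 from E13 and E14. They were chosen by their titles alone: starting at the title E13_MS10T34, in order of deposit, the unbroken run of cells labelled E13, E14, E16 or E17 was taken. The run holds 27 cells of E13, 28 of E14, 17 of E16 and 33 of E17, out of 197 monkey cells of these days, 421 monkey cells and 492 cells in the series. All came from embryos of Macaca fascicularis, for which the labels name no treatment, genotype or embryo number, and the late and early cells differ by label in their day and, in part, in a code within their titles. Per the labels' protocols, the implantation site was cut out of the uterus, the embryonic piece with epiblast, amnion, hypoblast and yolk sac endoderm was taken by hand, and trypsin was used to separate its cells. RNA was measured by SC3-seq, in which cDNA amplified from a single picked cell is sequenced at the 3-prime ends of the transcripts, and levels are in RPM, reads scaled to a common total in each cell. Because the labels number cells and not embryos, the day was the unit of comparison, 2 late days against 2 early days, and cells are shown only as the spread within a day.

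The epiblast is the layer of pluripotent cells from which the body of the embryo arises. In the blastocyst it expresses a set of genes called naive, among them genes otherwise known from oocytes and the cleaving embryo. After implantation it turns into a flat, polarised epithelium, lowers the naive genes, adds genes called primed, and keeps the core factors POU5F1, NANOG and SOX2 until gastrulation draws cells out through the primitive streak. The question of the comparison is how far this epithelium still changes within its own period, between the days just after implantation and those at which the streak forms.

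Recovered reads per cell were between 293673 and 3924506. From E13 to E17 the medians of the 4 days were 720540, 1999132, 1512454 and 1447211 reads, and 10795, 10977.5, 10775 and 10501 genes were detected in the median cell. No pair of the 105 cells had a correlation above 0.916. Epiblast is the name given to this run, which was chosen by titles and order of deposit, and the name was checked on markers. POU5F1, the central transcription factor of pluripotency, was between 10.07 and 11.60 on the log2(RPM + 1) scale in the 50 cells of E16 and E17 and between 9.82 and 11.55 in the 55 cells of E13 and E14. Each of the 8 epiblast markers had a mean of at least 4 (15 RPM) at E13, E14 and E16, and 7 of 8 at E17. A further 5 cells of these days stand later in the deposit. They carried 11 of 12 endoderm markers at a mean of at least 4 and only 2 of 8 epiblast markers, and entered as an alternative only.

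Some cells of both groups also carried genes of other layers. Gastrulating cell markers, genes of the primitive streak, summed to at most 245 RPM in E16 cells, and to as much as 2590 RPM in E17 cells, against 640 RPM in E13 cells and 1127 RPM in E14 cells. Cells of a pair of title codes stood apart, 1 on the late and 1 on the early side. The 7 E17 cells of code MS11 had a median of 451 RPM and a mean of at least 4 for 3 of the 10 markers, and the 3 E14 cells of code MS13 a median of 1007 RPM and 5 of the 10 markers at that level. In the MS11 cells the mean was 7.9 for EOMES, 6.0 for T and 5.2 for MIXL1 on the log2 scale, while MESP1 and MESP2 were at 0 in all 7 cells, as in the 3 MS13 cells of E14. By cell these 3 had EOMES at 5.6, 9.4 and 7.4 and T at 3.0, 8.4 and 9.2 in the same order. At E16, 11 of 17 cells had at least 3 of 10 extraembryonic mesenchyme markers at 4 or more, against 2 of 33 at E17, and 7 of 27 and 3 of 28 on the early days E13 and E14. COL3A1, a fibrillar collagen in this list, averaged 4.4 in the 13 E16 cells of code MS08 and 6.6 in the 4 of code MS09. The summed mesenchyme markers reached 14327 RPM in an E16 cell of code MS08. In that cell the epiblast markers summed to 2443 RPM, the lowest of the 105 cells, and the amnion markers to 1067 RPM. It was kept, and no alternative left out this cell alone. The median mesenchyme sums from E13 to E17 were 174, 249, 387 and 105 RPM. At least 3 of 12 trophectoderm and trophoblast markers were at 4 or more in 13 of 17 cells at E16. On the other days this held for 13 of 27 (E13), 10 of 28 (E14) and 8 of 33 (E17). For the 12 amnion markers the counts from E13 to E17 were 7 of 27, 13 of 28, 13 of 17 and 7 of 33. No label says what the title codes stand for.

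**Figure D1:**
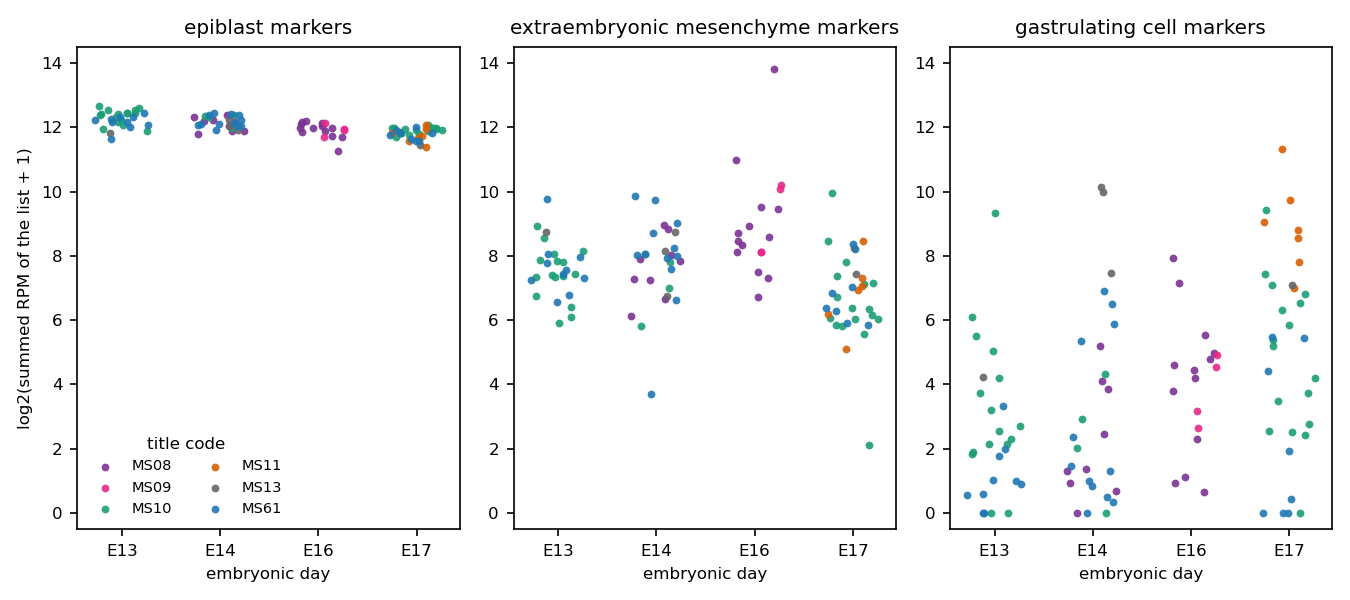
Summed RPM of 3 marker lists in each of the 105 cells (vertical axis, log2 of the sum plus 1) by embryonic day (horizontal axis), with 1 point a cell and its colour the title code. Epiblast markers lie in a narrow band on all 4 days, the mesenchyme markers reach their highest sums at E16, and the gastrulating markers are high in the 7 MS11 cells of E17 (median 451 RPM), in the 3 MS13 cells of E14 (median 1007 RPM) and in single other cells.

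Between the late and the early days 205 of 9417 tested genes changed (2.18%) by limma with Benjamini-Hochberg adjusted p under 0.05. Of these, 79 (0.839% of tested genes) were higher and 126 (1.34%) lower at E16 and E17. The filter on low values let 26 of the 79 in through the late days only. It let 32 of the 126 in through the early days only, against 202 and 165 of all 9417 genes. The means of the 2 late days lay on 1 side of both early means for all 205, as they did for 4172 of all tested genes (44.3%). The falls were the larger: 27 genes fell by at least 3 on the log2 scale and 3 rose by as much, while over all tested genes the median change was 0.03. Days also differed within a group. A difference of at least 1 was found for 1155 genes between the late and early means, for 1104 between E17 and E16 and for 1078 between E14 and E13, although a difference of single days carries more noise than one of means of 2 days. At an unadjusted p under 0.05 there were 1442 genes. The number of calls was 186 with edgeR and 526 with DESeq2 on the recovered reads, and 0 when no gene was filtered out for low values.

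**Figure D2:**
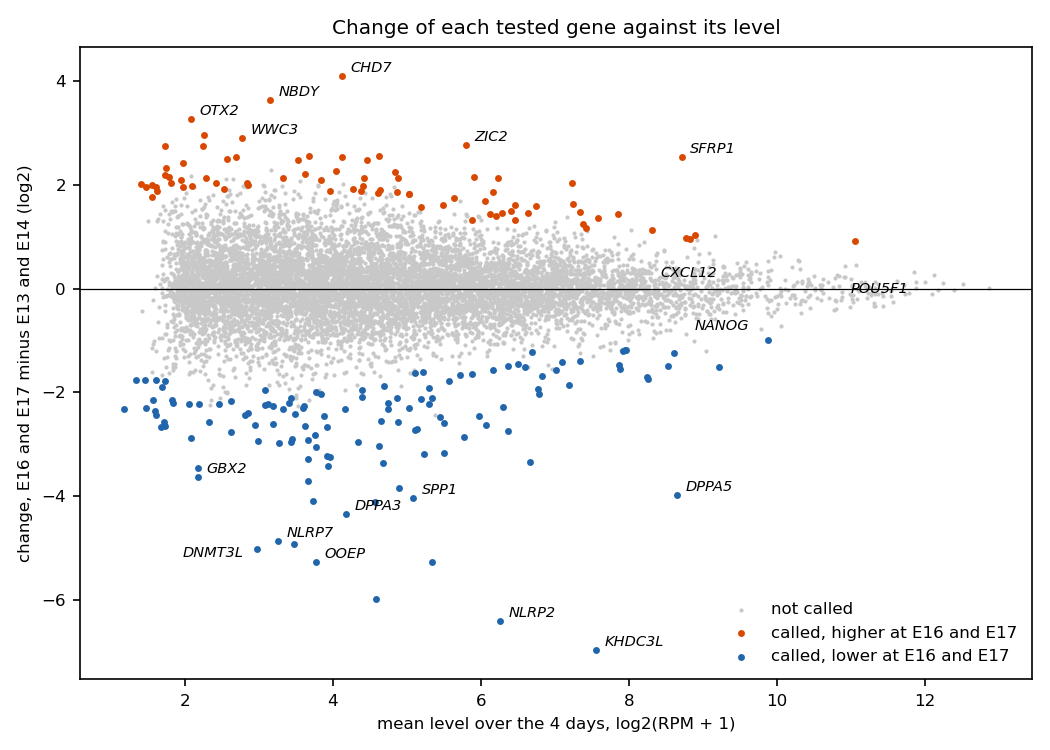
Change of each of the 9417 tested genes (vertical axis, E16 and E17 minus E13 and E14, log2) against its mean level over the 4 days (horizontal axis, log2(RPM + 1)). The 79 genes called higher are orange, the 126 called lower blue and the rest grey; KHDC3L lies lowest at -6.98 and CHD7 highest at 4.11.

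The deepest falls were in genes known from the oocyte. KHDC3L (gene ID 102135298), a component of the maternal complex under the egg membrane whose loss causes molar pregnancy in women, fell most of all tested genes. Its lowest, median and highest levels over cells were 9.46, 11.77 and 13.04 at E13, 8.44, 10.64 and 11.96 at E14, 0.91, 4.98 and 7.29 at E16, and 0.45, 3.44 and 10.82 at E17. All 55 early cells thus stood above all 17 E16 cells, and only some E17 cells reached the early range. The day means were 11.64, 10.45, 4.38 and 3.76 from E13 to E17, a change of -6.98 ± 0.35 (SE, 2 days against 2; adjusted p = 3.97e-08, limma). In RPM its mean was 41.2 at E16 and 101 at E17, against 3666 at E13 and 1723 at E14.

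NLRP2 and NLRP7, NACHT-domain proteins that act in the oocyte and early embryo, fell with it. NLRP2 was between 0 and 7.20 in late cells (median 2.27) and between 6.63 and 11.09 in early cells (median 9.60), and it changed by -6.42 ± 0.48 (adjusted p = 3.30e-06, limma). The ranges of the groups met only between 6.63 and 7.20. OOEP, another member of the maternal complex, had a median of 0 in late cells and 7.14 in early cells and changed by -5.27 ± 0.56. NLRP7 was lower on each later day: its day means from E13 to E17 were 7.96, 3.43, 1.16 and 0.49, a change of -4.87 ± 0.96 (adjusted p = 0.0144, limma). Within the early group E14 stood 4.53 below E13. From E13 to E17, NLRP7 reached 4 or more in 27 of 27, 14 of 28, 1 of 17 and 0 of 33 cells, the last of which allows a share of up to 9.09%.

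Of the 16 listed oocyte-type genes in the table, 6 were tested and all 6 fell, against 1.34% of all tested genes. The median change of the 6 was -5.07 against 0.03 over all tested genes. The other members were DPPA5 and NLRP12 (-1.90), the last named after its value was seen, and NLRP12 lost its call without E14 (adjusted p = 0.0796), without E16 (0.0671) or without E17 (0.0578), by limma. Of these 6, 3 were high enough to enter only through the early days, and 10 were too low to test. It is not stated how reads that fit several family members were counted, and the KHDC, DPPA5 and NLRP values are uncertain in that respect. The call of NLRP7 was lost with a pseudocount of 10 (adjusted p = 0.0647) and without an intensity trend (0.123), the highest of its alternatives with a filter, of which 16 of 18 called it.

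**Figure D3:**
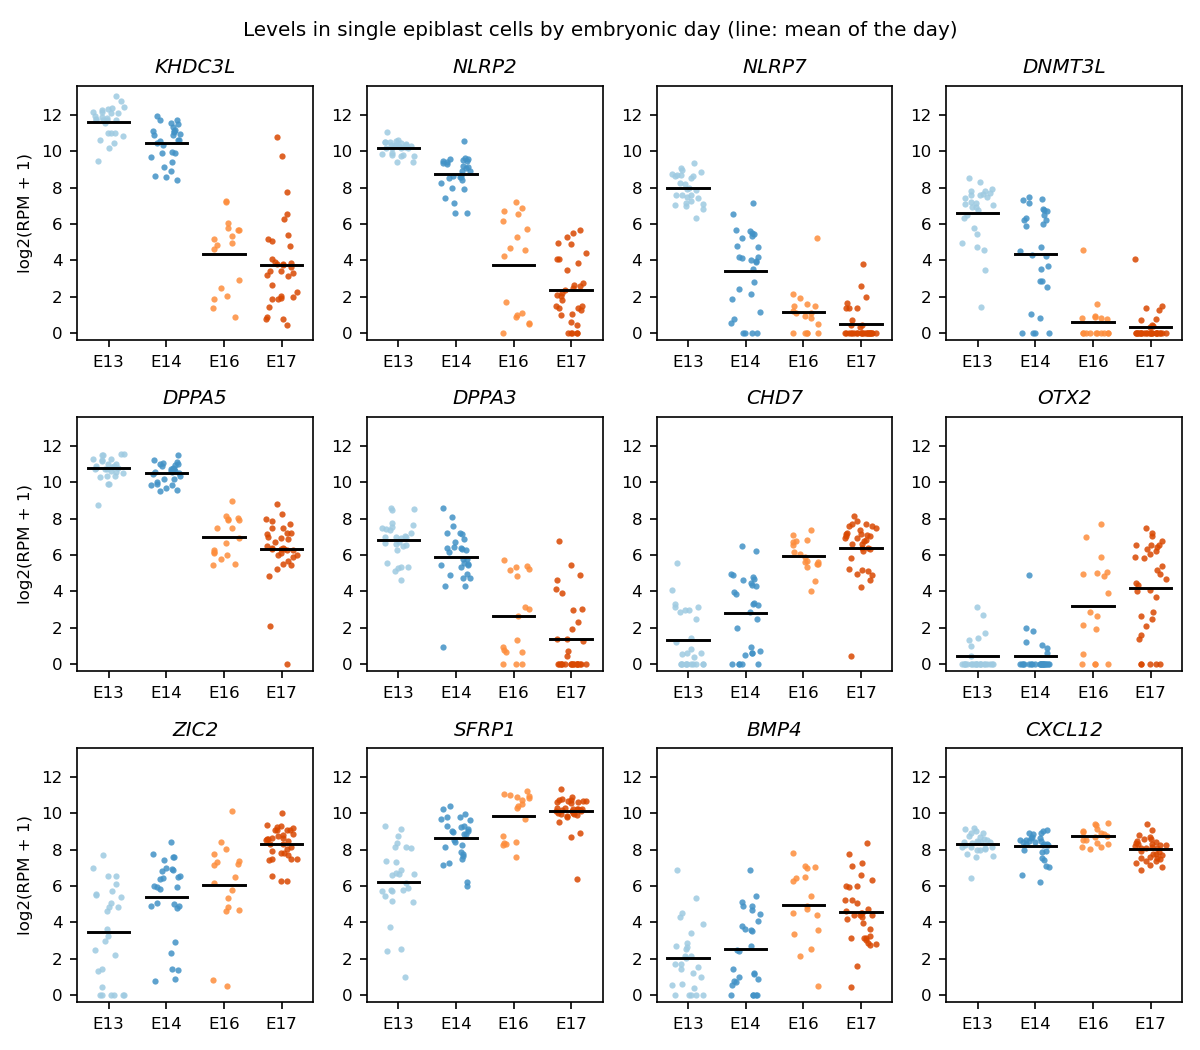
Levels of 12 genes in each of the 105 cells (vertical axes, log2(RPM + 1)) by embryonic day (horizontal axes), with 1 point a cell and a black line at the mean of the day. KHDC3L, NLRP2 and DPPA5 separate the early from nearly all late cells, NLRP7 falls already at E14 (day mean 3.43), CHD7, OTX2, ZIC2, SFRP1 and BMP4 are higher on the late days, and CXCL12 stays between day means of 8.02 and 8.76.

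Most tested naive genes fell as well, 7 of 9, against 1.34% of all tested genes. DPPA5 (gene ID 102134696), an RNA-binding protein of pluripotent cells, was between 0 and 8.98 in late cells and between 8.75 and 11.56 in early cells. Its day means were 10.77, 10.51, 7.0 and 6.32, and the change of -3.98 ± 0.26 was the most even among the largest falls (adjusted p = 8.58e-07, limma). DPPA5 nevertheless remained at 4 or more in 48 of 50 late cells. DNMT3L, the cofactor that directs the de novo DNA methyltransferases, had a median of 0 in late cells and 6.34 in early cells, with 2 of 50 late and 42 of 55 early cells at 4 or more, and it changed by -5.01 ± 0.63 (adjusted p = 0.000708, limma). DPPA3, which protects the maternal genome from demethylation in the mouse zygote, changed by -4.34 ± 0.52, with 11 of 50 late cells and 54 of 55 early cells at 4 or more. PRDM14, a transcriptional repressor of the naive and germ cell programmes, changed by -2.60 ± 0.39.

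Of 18 naive genes, 9 were tested and none rose, and the median change was -2.93; 4 of the 9 entered only through the early days. The Kruppel-like factors KLF4 (-2.93) and KLF5 (-1.77), named after their values were seen, complete the 7. SOX15 at -0.61 and FGF4 at -0.94 were not called, and DPPA5 and NLRP7 stand in both the naive and the oocyte-type list. The call of KLF4 was lost without E13 (adjusted p = 0.0794), and that of KLF5 without E14 (0.0882) or without E17 (0.175), by limma.

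Other large falls were in genes of no shared list. SPP1, the secreted matrix phosphoprotein osteopontin, was between 0 and 10.61 in late cells (median 2.84) and between 0.54 and 11.37 in early cells (median 7.50), and it changed by -4.05 ± 0.43. Its ranges overlapped, but its day means of 6.51, 7.71, 3.13 and 3.0 did not. CRIP1, a small LIM-domain protein, changed by -4.12 ± 0.47, the TRIM-family gene TRIM61 by -4.10 ± 0.54 and ZYG11A, a substrate receptor of a ubiquitin ligase, by -3.85 ± 0.44. The linker histone gene H1-2 changed by -3.72 ± 0.48 and CMBL, a hydrolase, by -3.37 ± 0.50. GBX2, a homeobox gene linked to naive pluripotency in mouse, was at 0 in 40 of 50 late cells and 13 of 55 early cells and changed by -3.64 ± 0.47. For CMBL and GBX2 the lower late day was E16 (2.61 and 0.14), while E17 was at 3.39 and 0.59.

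Among the 14 large falls given here, 13 kept their call under every alternative with a filter that tested them, the exception being NLRP7. As to the filter, 5 of the 14 entered the test only through the early days. In all 14, the change within each of the title codes MS08, MS10 and MS61 was negative, between -8.78 and -2.23. The cells of these codes also enter the comparison that chose these genes, so the values within codes are a description and no separate test. The shares of all tested genes with the same direction within each code are given further below. E14 lay below E13 in 13 of the 14, SPP1 being the exception, and in 54.3% of all tested genes. The E13 and E14 means enter the choice of the 14, so this count too is a description. The E07 to E09 epiblast, a run of 34 cells chosen by title in the same way (5, 24 and 5 cells), was on average above the early days for 11 of the 14 and below the late days for none. The early and late means enter the choice of these genes, and the same counts over all tested genes were not taken. Cell type markers were not summed for the 34 cells. Except for MS08 in some E07 cells, their title codes occur in no cell of the E13 to E17 run, so day and code can hardly be told apart there. KHDC3L, for example, was at 12.45, 12.18 and 12.44 at E07, E08 and E09, and OOEP at 10.99, 10.70 and 10.35. SPP1 was at 2.01, 5.57 and 5.17 on those days, below its means of E13 and E14.

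**Figure D4:**
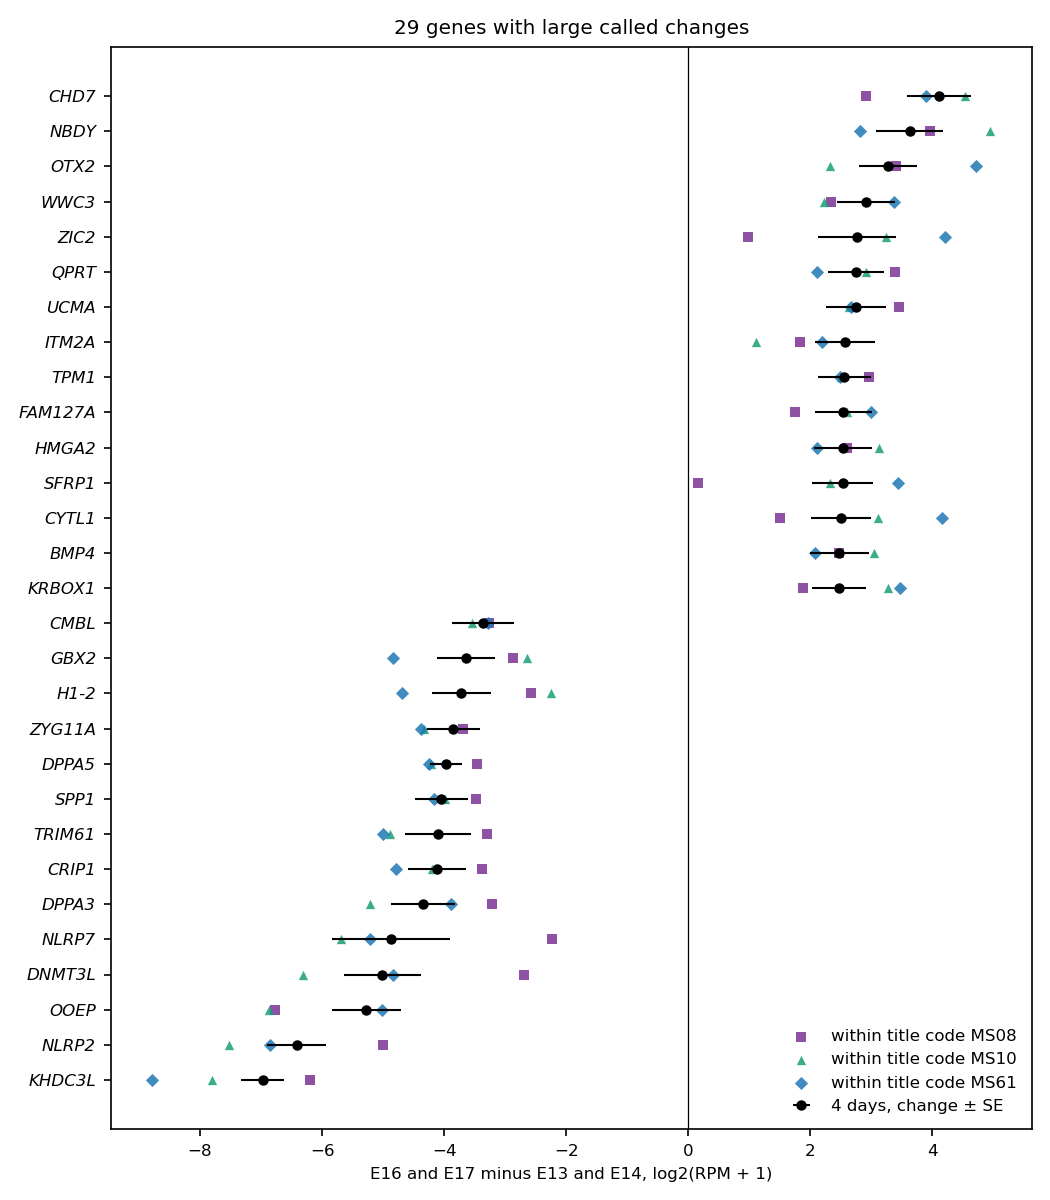
Change at E16 and E17 against E13 and E14 (horizontal axis, log2) of the 15 largest called rises and of 14 of the largest called falls. Black points with bars are the change over 4 days ± SE, and coloured marks are the differences within a title code (MS08, E16 minus E14; MS10 and MS61, E17 minus E13 and E14); all marks lie on the same side of 0 as their black point, with SFRP1 in MS08 nearest to it at 0.15.

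CHD7 (gene ID 102142012), a chromodomain helicase that opens enhancers and is mutated in CHARGE syndrome, had the largest rise. It was between 0.42 and 8.13 in late cells (median 6.57) and between 0 and 6.51 in early cells (median 1.45). From E13 to E17, levels of 4 or more were found in 2 of 27, 10 of 28, 17 of 17 and 32 of 33 cells. The change was 4.11 ± 0.52 (adjusted p = 0.000765, limma), but CHD7 was not called by DESeq2 on the recovered reads (adjusted p = 0.0635, the highest of its alternatives with a filter). NBDY, a microprotein of the mRNA decapping bodies, rose by 3.63 ± 0.55, with 41 of 50 late and 11 of 55 early cells at 4 or more, and was called by neither edgeR (0.0838) nor DESeq2 (0.246).

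OTX2, a homeobox factor of the anterior epiblast and later forebrain, was found mainly on the late days. Its highest level was 3.16 at E13 and 4.89 at E14, and 41 of 55 early cells were at 0, while its median was 2.88 at E16 and 4.70 at E17. Of late cells, 56% (28 of 50; 95% Clopper-Pearson interval 41.3% to 70%) reached 4 or more, against 1.82% of early cells (1 of 55; 0.046% to 9.72%). The shares and intervals cover counting error over cells only, and day means gave a change of 3.27 ± 0.47 (adjusted p = 0.00176, limma). OTX2 was at 1.10, 0.45 and 0.75 at E07, E08 and E09.

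ZIC2, a zinc finger factor of the epiblast and neural plate, had a higher mean on each later day (3.45, 5.38, 6.05 and 8.32) and rose by 2.77 ± 0.64 (adjusted p = 0.0325, limma). All 33 E17 cells were at 6.27 or more, whereas E16 cells ran from 0.49 to 10.13. Without E17 the change was 1.63 and no longer passed (adjusted p = 0.0583), and 13 of 20 alternatives called ZIC2. SFRP1, a secreted antagonist of WNT ligands, was between 6.41 and 11.33 in late cells and between 0.99 and 10.42 in early cells, with means of 6.25, 8.65, 9.85 and 10.12. Its change was 2.53 ± 0.50 (adjusted p = 0.0136, limma), while E14 stood 2.41 above E13 within the early group. Within the code MS08, which compares E16 with E14, SFRP1 differed by 0.15, within MS10 by 2.33 and within MS61 by 3.44, and the call was lost with the title code as a covariate (adjusted p = 0.0834; 0.156 without an intensity trend, the highest).

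BMP4, the ligand that the amnion and posterior epiblast use in patterning, was at 4 or more in 33 of 50 late cells and 12 of 55 early cells and rose by 2.48 ± 0.48 (adjusted p = 0.0132, limma). Its call was lost with the same number of cells per day (0.0552, the highest of its alternatives with a filter). HMGA2, an architectural chromatin protein of embryonic cells, rose by 2.54 ± 0.47, and TPM1, an actin-binding tropomyosin, by 2.56 ± 0.43. HMGA2 was below 0.5 on average at E07, E08 and E09, while TPM1 was at 3.39, 4.29 and 5.11. WWC3, a scaffold of the Hippo pathway, rose by 2.91 ± 0.47 and QPRT, an enzyme of NAD synthesis, by 2.75 ± 0.46. The secreted proteins UCMA and CYTL1, both known from cartilage, rose by 2.75 ± 0.50 and 2.51 ± 0.49, and UCMA was at 0 in all but 6 of the 55 early cells. ITM2A, a membrane protein of differentiating mesoderm, rose by 2.57 ± 0.49, FAM127A, a gene derived from a retrotransposon and with close copies among which reads could be split, by 2.54 ± 0.47 and the KRAB-domain gene KRBOX1 by 2.47 ± 0.44. The ITM2A call was lost with the title code as a covariate (adjusted p = 0.0661), and that of UCMA without an intensity trend (0.0589), each the highest of its alternatives with a filter.

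At E07 to E09 all 15 of these rises were below their late mean, and 6 of the 15 were above their early mean. The late mean enters the choice of these genes, and the same counts over all tested genes were not taken. As to the filter, 6 of the 15 entered the test only through the late days. Of the 15, 8 kept their call under every alternative with a filter that tested them. Mesenchyme, trophoblast and amnion markers were high in part of the E16 cells, and the streak markers in part of the E17 and E14 cells, as described above. Their part in these rises was not tested. With the E16 cells of code MS09 left out 276 genes were called, including 203 of the 205, and without the E17 cells of code MS11 262 genes, including 201. Without the E14 cells of code MS13, 186 genes were called, 182 of them among the 205. Within MS61, whose 8 E17 cells had EOMES at most at 1.69 and COL3A1 at most at 2.42, the 15 rises were between 2.08 (BMP4) and 4.71 (OTX2). The MS61 cells also enter the comparison that chose the 15 genes, so these values are a description and test no cause. EOMES and COL3A1 are only part of the marker lists, and MIXL1 ran from 0 to 5.41 in the same E17 cells.

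Most core pluripotency genes did not pass. Of 13 tested, 2 fell, against 1.34% of all tested genes: PRDM14 and DPPA2 (-2.22 ± 0.40, adjusted p = 0.0076), a chromatin factor of early development. None rose, and the median change was -0.37. POU5F1 was at -0.16 ± 0.21, L1TD1, an RNA-binding protein, at -0.18 ± 0.23 and SALL4, a zinc finger factor, at 0.17 ± 0.24, with adjusted p of 0.80, 0.80 and 0.82 (limma). SOX2 was at -0.37 ± 0.30 (0.63) and GDF3, a ligand of the NODAL class, at -0.68 ± 0.38 (0.43). NANOG had a median of 8.36 in late cells and 9.24 in early cells, and DPPA4 8.10 and 8.94. Their changes of -0.88 ± 0.23 and -0.84 ± 0.23 missed the threshold (adjusted p = 0.061 and 0.0792), although NANOG passed in 6 and DPPA4 in 2 of 20 alternatives, DESeq2 among them (0.0116 and 0.0113). ZFP42, known as REX1, was at 0.79 ± 0.36 (adjusted p = 0.31), with day means of 4.86, 5.52, 6.09 and 5.86.

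Of 17 tested primed epiblast genes 5 rose and 2 fell, with a median of 0.91. Of all tested genes 0.839% rose and 1.34% fell. Beside OTX2, ZIC2 and SFRP1, the rises were of NREP (1.14), a neuronal regeneration protein, and the surface glycoprotein CD24 (0.92), which were named after their values were seen. Both lost their call without E13 (adjusted p = 0.0869 and 0.117, limma), and CD24 also without E14 (0.0593). The falls were of SFRP2 (-1.54 ± 0.28), a WNT antagonist like SFRP1, and ETV4 (-1.39 ± 0.30), an ETS factor that responds to ERK signalling. SFRP2 remained high, between 1.76 and 9.27 in late cells and between 6.57 and 10.11 in early cells. The call of ETV4 was lost without E13 (0.0955) and without E16 (0.0777). FGF2 at 1.04 ± 0.30, CCND2 at 0.91 ± 0.35, VCAN at 1.38 ± 0.45 and SOX11 at 0.54 ± 0.37 did not pass (adjusted p between 0.0885 and 0.535). Of 31 late epiblast and neural transcription factors in the table only 12 were tested, and OTX2 and ZIC2 rose. Their median was 0.66, and ZIC5, the neighbour of ZIC2, was at 1.79 ± 0.51 (0.0863).

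**Figure D5:**
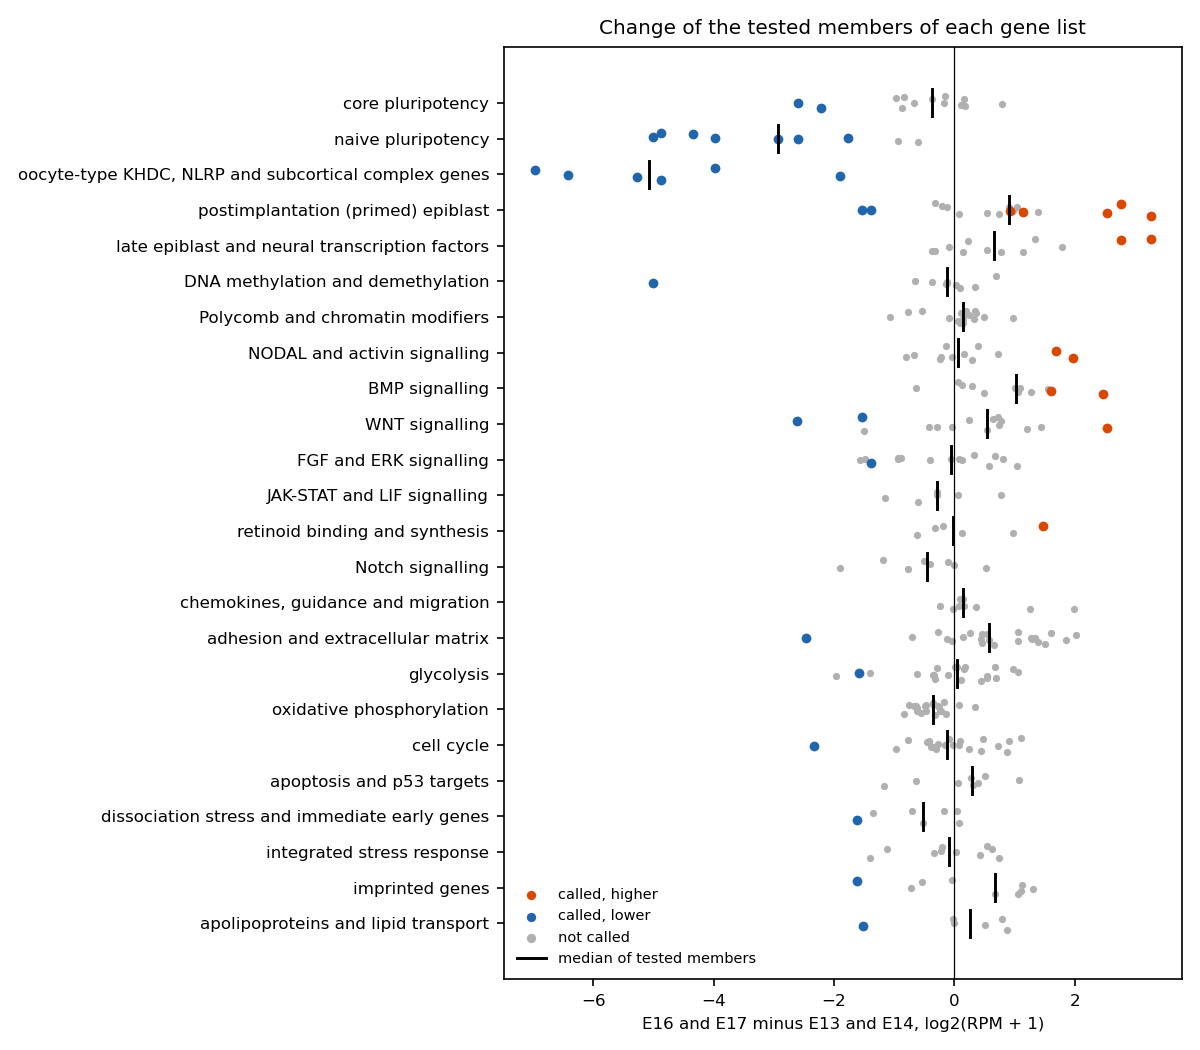
Change at E16 and E17 against E13 and E14 (horizontal axis, log2) of each tested member of 24 gene lists (rows), with 1 point a gene, orange where called higher, blue where called lower and grey where not called, and a black bar at the median of the list. Oocyte-type and naive genes lie far to the left (medians -5.07 and -2.93) and primed and BMP genes to the right (0.91 and 1.03). The medians of the glycolysis, chromatin and oxidative phosphorylation lists are 0.05, 0.15 and -0.35.

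The counts of the signalling lists stand beside 0.839% of all tested genes called higher and 1.34% called lower. Among signalling lists the BMP list had the highest median. Of its 12 tested genes 2 rose and none fell, with a median of 1.03: the ligand BMP4 and ID3 (1.60 ± 0.30), a direct target of BMP signals. The related targets ID1 at 1.09 ± 0.51 and ID2 at 1.55 ± 0.53 did not pass (adjusted p = 0.325 and 0.157), and their means were 5.41 and 5.42 at E16 but 4.07 and 4.11 at E17. ID3 was not called by edgeR (0.314) or DESeq2 (0.228), which put its change at 0.70 and 0.71. Of 12 NODAL and activin genes 2 rose, the receptor ACVR1B (1.97 ± 0.45) and FST (1.68 ± 0.33), which binds and blocks activin; the median was 0.06. ACVR1B lost its call without E13 (0.117) or without E17 (0.0607), and FST was not called by edgeR (0.122).

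Of 15 WNT genes 1 rose and 2 fell, with a median of 0.54, against 0.839% and 1.34% of all tested genes. The rise was SFRP1, and the falls were SFRP2 and the ligand WNT5B (-2.61 ± 0.52), which was at 4 or more in 10 of 50 late and 38 of 55 early cells. AXIN2, a general target of WNT signals, was at -1.51 ± 0.50 (adjusted p = 0.145), and the WNT5B call was lost without E13 (0.0651). Of 15 FGF and ERK genes ETV4 alone was called, and the feedback inhibitor SPRY2 was at -1.57 ± 0.40 (0.0542) and was called in 8 of 20 alternatives. NR6A1, an orphan receptor that silences POU5F1 in the mouse, was the only called gene of 6 tested retinoid genes (1.46 ± 0.32), and lost its call without E13 (0.112) or E17 (0.0751). None of 6 JAK-STAT and LIF genes and none of 8 Notch genes passed, with DLL3 at -1.91 ± 0.52 (0.0704) and LFNG, which modifies Notch, at -1.18 ± 0.30 (0.0545). None of 9 genes of chemokines, guidance and migration passed either. SEMA3A, a repellent of axons and migrating cells, was at 1.99 ± 0.50 (0.0523). CXCL12, the chemokine given as a marker of these cells, was between 6.89 and 9.50 in late cells and between 6.23 and 9.17 in early cells and differed by 0.14 ± 0.27 (0.882).

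Of 10 tested genes of DNA methylation DNMT3L alone changed, beside 2.18% of all tested genes. The de novo methyltransferase DNMT3B was high on all 4 days, at 10.71, 11.43, 11.37 and 10.52, and differed by -0.12 ± 0.28, and the maintenance enzyme DNMT1 was at 0.69 ± 0.30 (adjusted p = 0.90 and 0.276). Without E14 DNMT3B was at 0.24 and without E17 at 0.30, so no direction can be given. None of 18 Polycomb and chromatin modifiers passed, and their changes lay between -1.06 and 0.98. Of 23 adhesion and matrix genes HAS2, which makes hyaluronan, fell (-2.47 ± 0.41) and none rose, with a median of 0.58; 14 of the 23 had both late means above both early means, against 23.9% of all tested genes. COL4A1 was at 2.03 ± 0.58 (0.0908) and COL18A1 at 1.85 ± 0.50 (0.0693). COL4A1, which also stands in the endoderm marker list, had a mean of 6.16 at E16 and 4.12 at E17. The part of markers of other cells in its level was not tested. The change of HAS2 was -0.78 with edgeR and with DESeq2, and neither called it (0.489 and 0.771).

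Metabolic and cell cycle lists held at most 1 call each, beside 2.18% of all tested genes. Of 21 glycolysis genes HK1, the hexokinase that starts the pathway, fell (-1.58 ± 0.27) and none rose, with a median of 0.05. Of 21 genes of oxidative phosphorylation none passed. Their changes lay between -0.83 and 0.34, with a median of -0.35. Both late means were below both early means for 10 and above them for 1, against 20.4% and 23.9% of all tested genes. Of 22 cell cycle genes CCND1, a D-type cyclin, fell (-2.33 ± 0.45). Its call was lost without E13 (adjusted p = 0.135) and with the title code as a covariate (0.120), and within MS08 it differed by -0.27. The fatty acid carrier FABP5 fell by 1.52 ± 0.28 on the log2 scale, 1 of 6 lipid transport genes tested, and lost its call without E13 (0.0636). Of 9 imprinted genes NNAT, which lies inside another gene in human so that its reads may be shared, was called (-1.61 ± 0.39), and of 7 immediate early and stress genes IER2 (-1.62 ± 0.39). NNAT passed in 9 and IER2 in 7 of 20 alternatives. NNAT lost its call without E13 (0.244) or E16 (0.117) and IER2 without any of E13 (0.0582), E14 (0.105) and E16 (0.117). No gene of 8 tested for apoptosis or of 10 for the integrated stress response passed, and none of 17 HOX genes was high enough to be tested.

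Of markers of other cells, few reached the level needed for a test. KRT7, a keratin of trophoblast and amnion that stands in both lists, fell by 2.97 ± 0.47 on the log2 scale. It was at 4 or more in 13 of 50 late and 44 of 55 early cells. KRT7 was the only call among 4 trophectoderm and 5 amnion genes tested, beside 2.18% of all tested genes. The median changes of these 2 lists were 0.46 and 0.71, in the other direction. VTCN1, an amnion gene, was at 2.17 ± 0.55 (adjusted p = 0.0523) and entered through the late days only. None of 2 endoderm and none of 3 mesenchyme genes tested passed, and no gene of the gastrulating list was tested, since none had a mean of 2 on 2 days. Endoderm markers summed to a median of 109 RPM at E16 and 74.1 RPM at E17, against 33.9 RPM at E13 and 33 RPM at E14. Of germ cell markers DPPA3 fell, and NANOS3, which defines germ cells, was at 0 in all cells of E13, E14 and E16. Of blood and endothelium markers only KDR, a receptor of VEGF, was tested, at -1.62 ± 0.48 (0.0975), while LYVE1 was at 0 in all 105 cells. The 6 decidua markers summed to at most 39.4 RPM in any cell.

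Differences between the 2 days of a group were also counted for the called genes. Of the 126 genes lower on the late days, 89 (70.6%) were already lower at E14 than at E13, against 54.3% of all tested genes, and 77 (61.1%) were lower at E17 than at E16, against 56%. Of the 79 higher genes 55 (69.6%) were above E13 at E14 and 40 (50.6%) above E16 at E17, against 45.7% and 44% of all. The E13 and E14 means enter the call itself, so these shares are a description. At E07 to E09 the mean of 68 of the 126 lower genes was above that of E13 and E14. For 18 of the 126 it was below that of E16 and E17. Of the 79 higher genes, 71 had a mean at E07 to E09 below that of E16 and E17, and 30 had one above that of E13 and E14. The same counts over all tested genes were not taken. The means of all 4 days enter the call, so these counts too are a description.

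Titles share codes across days, which allowed the difference to be taken within a code. Within MS08, 203 of the 205 called genes (99.0%) differed in the direction of the call, within MS10 all 205 and within MS61 204 (99.5%), against 69.2%, 75.5% and 74.7% of all tested genes. The 3 exceptions were TIMP4, which was lower by 1.79 over the days but at 0.27 within MS08, RNASET2 (-1.49, but 0.13 within MS61) and CTSC (1.46, but -0.33 within MS08). By limma, TIMP4 lost its call without E13 (adjusted p = 0.178) or E16 (0.227), RNASET2 without E13 (0.225) and CTSC without E16 (0.126). These cells also enter the 4-day comparison. E13 has no cell of MS08 and E16 none of MS10 or MS61, so day and code can be told apart only in part.

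The 7 E17 cells of code MS11 departed from the other E17 cells in KHDC3L. Its mean was 6.08 in them, against 3.66 in the 17 E17 cells of MS10 and 2.33 in the 8 of MS61. By cell the 7 KHDC3L levels were 10.8, 9.7, 7.8, 6.6, 6.3, 0.9 and 0.5, and the EOMES levels of the same cells in the same order were 9.2, 9.2, 8.3, 7.9, 6.7, 8.9 and 4.8. FOXA2, a factor of the anterior streak and endoderm, was at 8.7, 9.0, 9.5, 8.2, 5.5, 6.8 and 1.5 in that order. NLRP2 (mean 1.53) and DNMT3L (0.17) were low in the same 7 cells, and OTX2 (4.78) and ZIC2 (8.6) were in the range of the other E17 cells. The cell lowest in KHDC3L was also at 0 for DPPA5 and OTX2 and had T at 7.1. With these 7 cells left out KHDC3L was called as before, and 262 genes passed.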

How the data were processed

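The authors deposited RPM values per gene and cell; per the file headers, gene models are those of macFas5. The submitters' processing notes list cutadapt 1.3, TopHat 1.4.1 and Cufflinks 2.2.0 with no role given, and mm10 as a build. Gene counting, strand, filters and molecular identifiers are not stated. No value is given for 298 of the 29095 genes, and 3296 of 14758 genes with a LOC name took a symbol by gene ID from RefSeq's gene table of a newer assembly of the species. No coordinates or sequences were used. Dividing RPM by its smallest step gave back reads: in every cell at least 99.8% of values (those over 0.01 RPM and below 500 reads) came out whole to 0.1 of a read. At most 9 values a cell lay below 0.01 RPM. In the shallowest cell 1 read is worth 3.41 RPM, so low levels rest on few reads.

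Levels are log2(RPM + 1), a scale on which the changes of low genes are understated. The mean over the cells of a day was the unit, and genes with a day mean of at least 2 on at least 2 of the 4 days were tested. A gene high in 1 group only could thus enter through that group. Of 9417 genes, 202 entered through the late days only and 165 through the early days only. Among the calls the late days alone let in 26 of the 79 higher genes, and the early days alone 32 of the 126 lower genes. The contrast of late minus early days was tested in R 4.3.3 by limma 3.58.1, whose prior variance followed the mean level, two-sided, with Benjamini-Hochberg adjustment over all tested genes and a threshold of 0.05. With 2 days against 2 an exact permutation test cannot give a p below 0.333, and limma borrows the spread from all genes (median prior degrees of freedom 12.9). The p measures the spread between days, which is not known to be a spread between embryos. An SE is that of the fitted change, and cells were not replicates. Shares of cells have exact Clopper-Pearson 95% intervals, a count of 0 was taken to allow up to 3 cells, and both reflect counting error alone. Every cell was kept, and doublets were not called because cells were picked singly.

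Genes named were the 15 largest called rises and falls with a symbol, the 6 markers given for these cells, and up to 4 called members of each list with the largest changes; other genes were named after their values were seen. 1 of the 15 falls is not reported here. The members, lists and markers were chosen with earlier results of these data known. Alternatives used edgeR 4.0.16 and DESeq2 1.42.0 on recovered reads summed per day, and other scalings, filters and cell sets. The fits were tested on simulated data. Of lists with called members the text gives each; the primitive streak list had 1 tested gene, SNAI1, at 0.77, which was not called.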

Additional observations from a re-analysis of the deposited data

How the results depend on the processing

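No paired analysis was possible because the labels number cells and not embryos; title codes recur across days, but what they stand for is not stated and no code spans all 4 days. The 205 genes called (79 genes called higher at E16 and E17, 126 genes called lower at E16 and E17) were 526 with DESeq2 (242 higher, 284 lower), 126 with a day mean of at least 4 (43 higher, 83 lower) and 80 without an intensity trend (22 higher, 58 lower). With the title code as a covariate they were 321 (136 higher). With no filter 0 of 22782 genes passed in either direction by limma, the smallest adjusted p was 0.145, and 2214 genes had an unadjusted p under 0.05. Leaving out 1 day gave 149 (without E13) to 463 calls (without E14), 55 to 214 higher and 94 to 249 lower; without E17 145 were higher, and without E16 198 were lower. The cause of these shifts was not tested. The other 11 alternatives gave 172 to 276 calls.

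Of the 61 called genes named in the text, none changed direction in a fit. Leaving out 1 day ended the call of 20 of the 61, each with its value beside its result. Among genes with no call, CXCL12 turned to -0.065 with the title code as a covariate and to -0.22 with the 5 later cells, and lay between -0.23 and 0.51 with 1 day left out. SOX2 then lay between -0.77 and 0.025, L1TD1 between -0.37 and 0.011, and DNMT3B between -0.55 and 0.30. Within title codes TIMP4 was at 0.27 (MS08), RNASET2 at 0.13 (MS61) and CTSC at -0.33 (MS08). The alternatives without the MS09 cells of E16, the MS11 cells of E17 or the MS13 cells of E14 were chosen after seeing the data. Without the MS13 cells of E14 the calls of IER2 and NNAT (adjusted p = 0.0512 each), KLF5 (0.073), TIMP4 and CTSC (0.0753 each) were lost by limma. Depth was lowest in the MS10 cells of E13, E14 and E17 (medians of 582243, 465309 and 622176 reads) and limits low genes there; thinning each cell to 150000 reads left 172 calls, 159 of them among the 205.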

Other observations

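Some called genes stand in none of the lists, and those given here were chosen after their values were seen. LGALS1, a secreted lectin, fell by 3.34 ± 0.42 on the log2 scale, with day means of 9.01, 7.66, 5.5 and 4.49 from E13 to E17 (adjusted p = 0.000708, limma). CAV1, the coat protein of caveolae, changed by -2.71 ± 0.38, the adhesion molecule L1CAM by -2.55 ± 0.41 and the tetraspanin CD9 by -1.71 ± 0.24. CD9 nevertheless remained at 4 or more in 49 of 50 late cells and 55 of 55 early cells. VENTX, a homeobox gene of primates with no mouse counterpart, changed by -3.23 ± 0.59, with 8 of 50 late and 47 of 55 early cells at 4 or more; without E13 it did not pass (adjusted p = 0.052, limma). PTCH1, the receptor of hedgehog ligands and itself a target of the pathway, rose by 2.15 ± 0.34, and its changes within MS08, MS10 and MS61 were 1.86, 2.17 and 2.13. FAT1, a giant cadherin, rose by 2.21 ± 0.48 and the receptor kinase ERBB2 by 1.83 ± 0.42. By limma the FAT1 call was lost without E17 (adjusted p = 0.0759), and that of ERBB2 without E13 (0.0959) or without E16 (0.0754).

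The 5 later cells of E13 (1), E14 (1), E16 (2) and E17 (1) that stand later in the deposit were low in epiblast genes. Their mean was 7.75 for SOX17, 9.25 for GATA4 and 9.48 for APOA1, genes of endoderm, and 3.31 for POU5F1 and 0.34 for SOX2. KHDC3L was at 1.67 in them. With these 5 cells added to their days 192 genes were called, 182 of them among the 205.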
